A study of Bos taurus with 8 samples.

Results

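The genes described here are 10 genes of the actin cytoskeleton, read in cultured chondrocytes of bovine articular cartilage. Several of them are best known as contractile genes. The 10 genes were chosen by name and are *ACTA2*, *TAGLN*, *TAGLN2*, *MYL9*, *CNN1*, *CNN2*, *TPM1*, *TPM2*, *CALD1* and *ACTN1*. All 10 were found among the 24596 genes of the count table, and all 10 were among the 12857 genes that passed the filter on low counts.

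Cartilage came from the knee joints of wild-type calves 1 to 2 weeks old. Superficial zone chondrocytes (SZCs) were taken from the slice next to the joint surface and deep zone chondrocytes (DZCs) from a slice near the bone, and the middle zone between them was discarded. Both were released with pronase and collagenase and cultured for 3 days in DMEM/F12 with 10% serum, without a further treatment, before RNA was sequenced. Each zone has 2 RNA-Seq libraries, described in the methods as biological duplicates, and neither the labels nor the methods say whether the duplicates came from different calves. If they did not, p-values measure only the spread between these libraries. The comparison asks which genes distinguish the zones.

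Actin filaments become contractile when myosin II slides along them, and several of these genes encode proteins that sit on such filaments. Smooth muscle actin (*ACTA2*), transgelin (*TAGLN*) and calponin 1 (*CNN1*) are classical markers of smooth muscle and of myofibroblasts, and many of these genes are targets of serum response factor (SRF) and its coactivators of the MRTF family. Chondrocytes that spread on plastic are known to build stress fibres and to gain such genes while cartilage matrix genes decline. Gene counts do not separate the smooth muscle and non-muscle splice forms of *TPM1*, *CALD1* and *ACTN1*.

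The libraries held 19918970 to 21890549 counts, so a gene with 3 counts, used as the floor of detection, was at 0.129 to 0.187 CPM (counts scaled to a common library size after TMM scaling, which corrects for differences in composition). *COL2A1*, the main cartilage collagen, took 7.18% and 6.31% of the counts in SZC replicates 1 and 2, and 24.5% and 12.9% in DZC replicates 1 and 2. DZC replicate 1 stood apart, with a TMM factor of 0.735 against 1.08 to 1.14 in the other libraries. All 9 genes of a chondrocyte marker list, among them *COL2A1*, *ACAN* and *SOX9*, had at least 1067 counts in every library.

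Of the 10 genes, 1 differed between the zones by edgeR's exact test at a false discovery rate (FDR) below 0.05, and it was higher in DZCs. This was *CNN2*, which encodes calponin 2, a calponin found in many non-muscle cells. Over all genes tested, 2.93% passed, with 2.23% higher in SZCs and 0.7% higher in DZCs, and nothing is read from 1 call in 10 genes against that background. The log2 fold change of SZCs over DZCs was below 0 for 8 of the 10 genes, with a median of -1.22 over the 10 against -0.04 over all genes tested. The 2 genes above 0 were *TAGLN2* and *CALD1*. The zones did not overlap for *CNN2* and *MYL9*, both higher in DZCs. This is 2 of 10, while over all genes tested the zones did not overlap in 41.5%, and in 20.5% with DZCs higher. The latter share depends on the scaling. It was 7.51% with scaling by library totals and 15.2% with totals without *COL2A1*, while *CNN2* and *MYL9* remained the 2 of the 10 genes with DZCs higher. With library totals *TAGLN2* had both SZC libraries above both DZC libraries. For the other 8 genes, libraries of one zone lay among those of the other after TMM scaling.

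**Figure D1:**
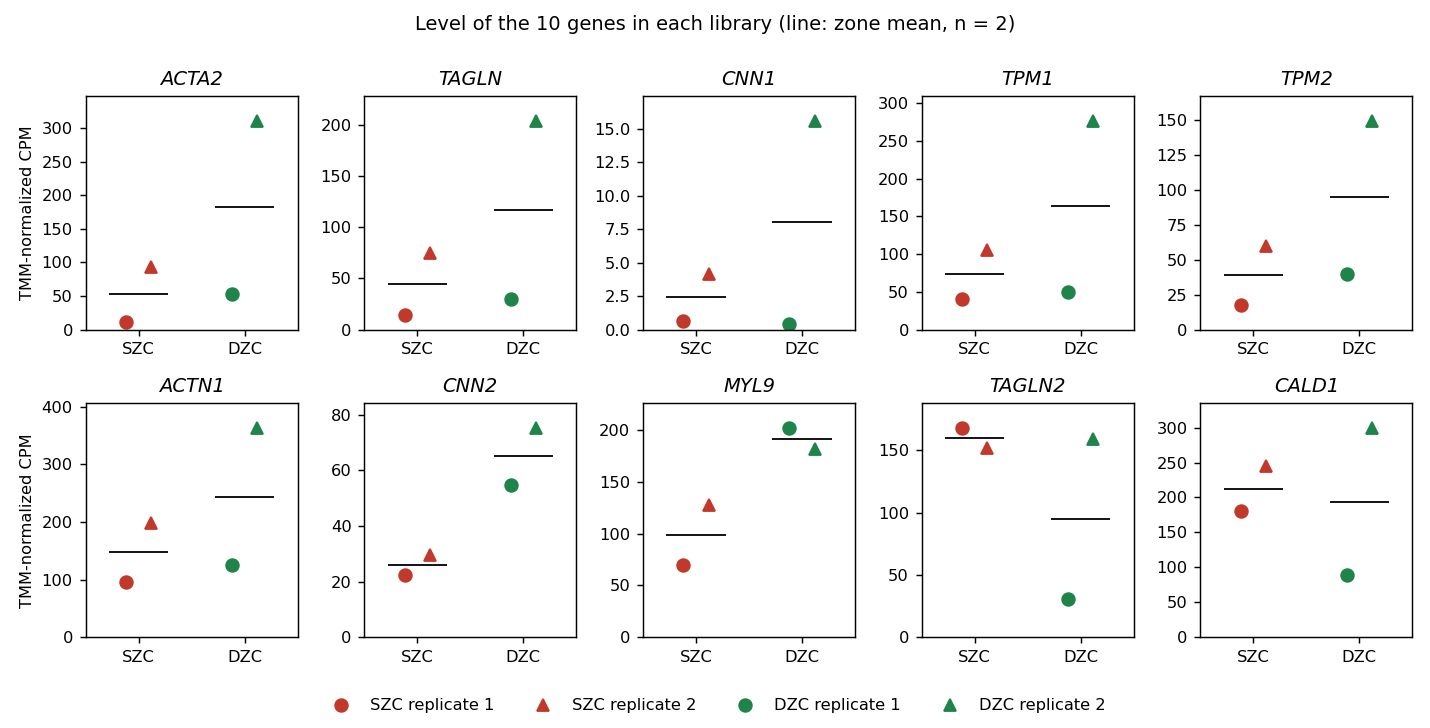
TMM-normalized CPM (vertical axis, linear from 0, a separate scale per gene) of each of the 10 genes in the SZC (red) and DZC (green) libraries, with circles for replicate 1, triangles for replicate 2 and a line for the zone mean (n = 2). DZC replicate 2 is the highest library for 8 of the 10 genes, and only *CNN2* and *MYL9* have both DZC libraries above both SZC libraries.

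*ACTA2*, smooth muscle alpha actin, was counted 254 and 2164 times in SZC replicates 1 and 2, and 855 and 6938 times in DZC replicates 1 and 2. Its levels were 11.5 and 93.2 CPM in SZCs and 53.2 and 311 CPM in DZCs. The zones overlapped, since SZC replicate 2 lay above DZC replicate 1, and the highest library exceeded the lowest 26.9-fold. The mean was 52.4 ± 57.8 CPM in SZCs and 182 ± 182 CPM in DZCs (both SD, n = 2). By edgeR's exact test the log2 fold change was -1.80 ± 1.08 (SE) with an FDR of 0.779, which did not pass. With same-numbered libraries treated as blocks, edgeR's quasi-likelihood test gave *ACTA2* an FDR of 0.0146, against 0.72 without blocks. No source used here says that a replicate number marks a joint. The coding parts of the actin genes are nearly identical, and how reads that fit several of them were counted is not given in the sources used here, so the split between actins is uncertain.

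*TAGLN*, which encodes transgelin (SM22 alpha), an actin-bundling protein of smooth muscle, followed the same order of libraries. It was at 13.9 and 75.0 CPM in SZC replicates 1 and 2, and at 29.5 and 204 CPM in DZC replicates 1 and 2. In edgeR's exact test the fold change on the log2 scale came to -1.39 ± 1.03 (SE), at an FDR of 0.872. *TAGLN2*, the transgelin of non-muscle cells, had another pattern. It was at 168 and 152 CPM in SZCs and 159 CPM in DZC replicate 2, which lay between the SZC libraries, while DZC replicate 1 was alone at 30.4 CPM. In edgeR's exact test the fold change on the log2 scale came to 0.76 ± 0.74 (SE), at an FDR of 0.962.

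The calponins bind actin and restrain myosin. *CNN1*, the smooth muscle calponin, was the least counted of the 10 genes. It had 15 and 97 counts in SZC replicates 1 and 2, and 7 and 348 counts in DZC replicates 1 and 2. The exact 95% Poisson interval was 2.81 to 14.4 for the 7 counts and 312 to 387 for the 348 counts, which covers counting error only, so the DZC libraries differed by far more than counting error. The gap between them was 35.8-fold in CPM, and the log2 fold change between the zones was -1.72 with a standard error of 1.43, the largest of the 10 (FDR 0.932 by edgeR's exact test).

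*CNN2* was steady within each zone by comparison. It was counted 494 and 687 times in SZC replicates 1 and 2, and 882 and 1677 times in DZC replicates 1 and 2. These counts correspond to 22.4 and 29.6 CPM in SZCs and to 54.9 and 75.2 CPM in DZCs, with both DZC libraries above both SZC libraries. The mean was 26.0 ± 5.06 CPM in SZCs against 65.0 ± 14.4 CPM in DZCs (both SD, n = 2), a 2.5-fold difference. In edgeR's exact test the fold change on the log2 scale came to -1.32 ± 0.37 (SE), at an FDR of 0.0227. The call was lost in edgeR's quasi-likelihood test (FDR 0.269), with scaling by library totals (0.495) or by totals without *COL2A1* (0.15), without SZC replicate 1 (1) and without SZC replicate 2 (0.669). Over all 14 alternatives its FDR ranged from 1.13e-05 to 1 and passed in 9, and its log2 fold change lay between -1.53 and -1.05.

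Tropomyosins lie along the actin filament and set which partners reach it. *TPM1* was at 40.3 and 106 CPM in SZC replicates 1 and 2, and at 49.6 and 277 CPM in DZC replicates 1 and 2. *TPM2* was at 17.5 and 60.0 CPM in SZCs and at 39.7 and 150 CPM in DZCs, in the same order of libraries and replicates. For both genes SZC replicate 1 was the lowest library, DZC replicate 2 the highest, and SZC replicate 2 lay above DZC replicate 1. The log2 fold changes were -1.16 for *TPM1* (standard error 0.85, FDR 0.861) and -1.29 for *TPM2* (standard error 0.80, FDR 0.775), both by edgeR's exact test.

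*CALD1* encodes caldesmon, which links actin, tropomyosin and myosin. It was at 181 and 244 CPM in SZC replicates 1 and 2, and at 88.4 and 299 CPM in DZC replicates 1 and 2, so the DZC libraries enclosed those of SZCs. In edgeR's exact test the fold change on the log2 scale came to 0.13 ± 0.62 (SE), at an FDR of 1, and was the closest to 0 of the 10 genes.

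*MYL9*, the regulatory light chain of smooth muscle and non-muscle myosin II, was at 69.4 and 128 CPM in SZC replicates 1 and 2, and at 202 and 181 CPM in DZC replicates 1 and 2. Here DZC replicate 1 was the highest library, and the zones did not overlap. The mean was 98.5 ± 41.2 CPM in SZCs against 191 ± 14.5 CPM in DZCs (both SD, n = 2), and the log2 fold change was -0.96 ± 0.43 (SE). By edgeR's exact test the unadjusted p was 0.0271 and the FDR 0.384, and 9.09% of all genes tested had an unadjusted p below 0.05.

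*ACTN1*, alpha-actinin 1, crosslinks actin filaments in stress fibres and focal adhesions. It was at 96.1 and 198 CPM in SZC replicates 1 and 2, and at 125 and 362 CPM in DZC replicates 1 and 2. The order of the libraries was that of *ACTA2*, *TAGLN*, *TPM1* and *TPM2*, and edgeR's exact test put the log2 fold change at -0.73 ± 0.63 (SE), with an FDR of 0.927. These 5 genes ran from SZC replicate 1 through DZC replicate 1 and SZC replicate 2 to DZC replicate 2, as did 4.77% of all genes tested.

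The libraries of a zone differed widely for these genes. The summed level of the 10 was 621 and 1090 CPM in SZC replicates 1 and 2, and 672 and 2033 CPM in DZC replicates 1 and 2. Replicate 2 was above replicate 1 in both zones for 8 of the 10 genes, against 32.8% of all genes tested, and by more than 1 on the log2 scale in both zones for 6 of 10, against 2.09%. The 6 were *ACTA2*, *TAGLN*, *CNN1*, *TPM1*, *TPM2* and *ACTN1*. The pattern was not particular to the 10 genes. Replicate 2 was the higher in both zones for 10 of 11 further smooth muscle genes, 15 of 21 focal adhesion genes, 7 of 8 smooth muscle and pericyte markers (3 of these 8 are also among the 11), 4 of 4 endothelial markers and 3 of 3 immune markers that were tested, against 1 of 9 chondrocyte markers. Over the 80 other actin genes tested it was so for 47, and by more than 1 on the log2 scale in both zones for 7. By list, replicate 2 was the higher in both zones for 3 of 8 actins and relatives of the 10 genes and 2 of 4 SRF regulators. It was so for 8 of 20 filament dynamics genes and 9 of 16 genes of non-muscle myosin and its regulators. In SZCs the gap of *ACTA2* was 8.08-fold, and 9 of the 12857 genes tested, *ACTA2* included, had one as large on the log2 scale in that direction. In DZCs the gap of *ACTA2* was 5.85-fold. *TAGLN* differed 5.38-fold between the SZC libraries and 6.90-fold between the DZC libraries, *TPM2* 3.42-fold and 3.77-fold, *TPM1* 2.62-fold and 5.57-fold, and *ACTN1* 2.06-fold and 2.91-fold. *CNN2* differed only 1.32-fold and 1.37-fold. *TAGLN2* had a gap in DZCs alone, 5.23-fold, and *MYL9* in SZCs alone, 1.84-fold. A replicate number names a library here and no condition separates the replicates of a zone.

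**Figure D2:**
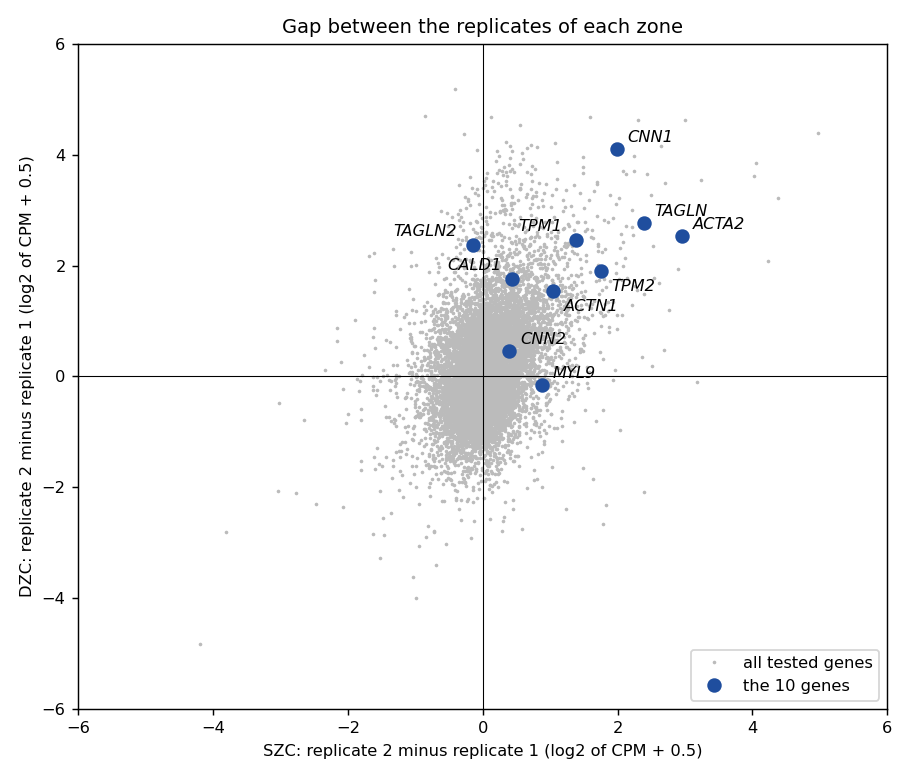
Difference between replicate 2 and replicate 1 on the log2(CPM + 0.5) scale within SZCs (horizontal axis) and within DZCs (vertical axis), with all 12857 tested genes in grey and the 10 genes in blue. In 8 of the 10 genes both differences are above 0, *TAGLN2* lies left of the vertical line and *MYL9* just below the horizontal one.

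The spread set the width of the errors. The median standard error of the log2 fold change was 0.77 for the 10 genes and 0.46 for all genes tested. It was lowest for *CNN2*, at 0.37, and next lowest for *MYL9*, at 0.43, the pair whose zones did not overlap.

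For several genes the direction changed when 1 library was left out. Leaving out DZC replicate 2 set both SZC libraries against DZC replicate 1 alone. Between same-numbered libraries, *ACTA2*, *TAGLN*, *TPM1*, *TPM2* and *ACTN1* were lower in SZCs for both numbers, and *CNN1* only for number 2. No source used here says that these numbers pair the libraries. Without DZC replicate 2 the log2 fold change of *ACTA2* was 0.00, that of *TAGLN* 0.61, that of *TPM1* 0.58, that of *ACTN1* 0.26 and that of *CNN1* 2.49, so 5 of the 8 genes below 0 were no longer below it. *TPM2* was then at -0.01, and the median of the 10 genes at 0.42, against 0.05 for all genes tested. *MYL9* and *CNN2* stayed at -1.01 and -1.05. *TAGLN2* and *CALD1*, for which DZC replicate 1 was then the lone DZC library, were at 2.42 and 1.29 and passed edgeR's exact test as higher in SZCs (FDR 6.30e-11 and 0.00212), and *MYL9* and *CNN2* passed as higher in DZCs (0.0332 and 0.00413). In that fit 21.5% of all genes tested passed. Without DZC replicate 1 *TAGLN2* was at 0.01 and *CALD1* at -0.49, and neither passed. Without DZC replicate 1 the values moved the other way, to -2.56 for *ACTA2*, -2.19 for *TAGLN* and -2.67 for *CNN1*, and 7 of the 10 genes passed the FDR threshold, all higher in DZCs, where 6.68% of all genes tested passed and 2.51% were higher in DZCs. Such fits assume that the lone library of a zone varies like the libraries of the other zone. Without SZC replicate 1 none of the 10 genes passed edgeR's exact test, and none had an unadjusted p below 0.05, against 0.529% and 3.75% of all genes tested, so nothing is read from these counts. Without SZC replicate 2 the log2 fold change of *ACTA2* was -3.98 and it alone passed (FDR 0.0102 by edgeR's exact test), with 1.26% of all genes tested.

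**Figure D3:**
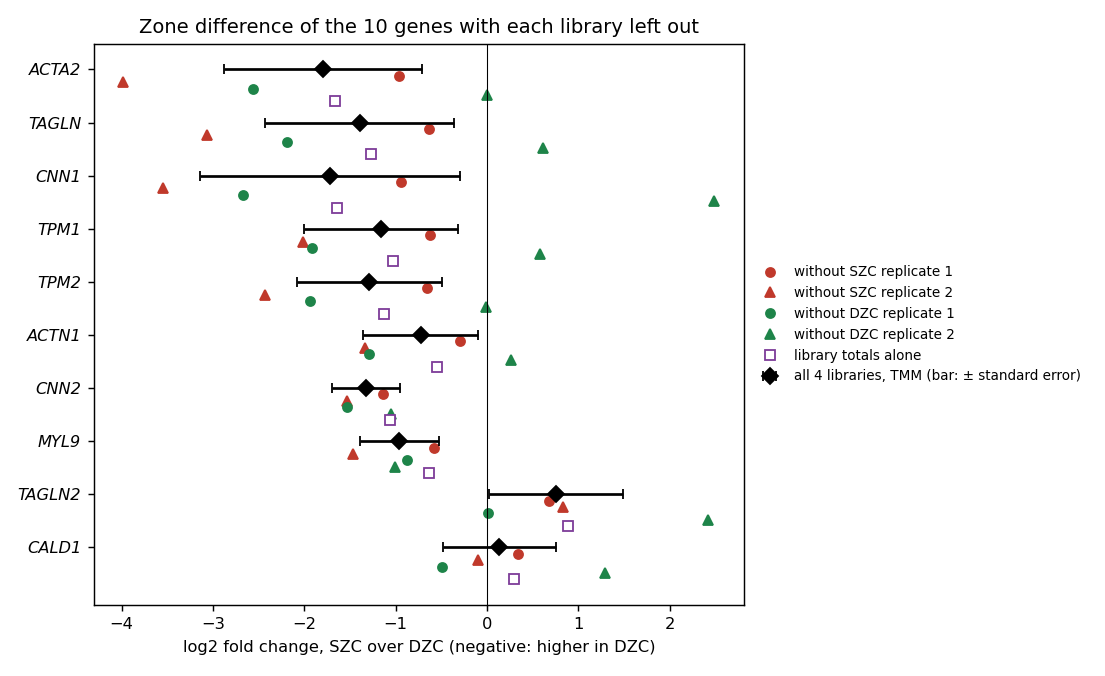
Log2 fold change of SZCs over DZCs (horizontal axis) of the 10 genes with all 4 libraries (black diamonds, bars of 1 standard error), with each library left out (red and green symbols) and with scaling by library totals (open squares). The green triangles, without DZC replicate 2, lie at 0.00 to 2.49 for *ACTA2*, *TAGLN*, *CNN1*, *TPM1* and *ACTN1*, while *CNN2* and *MYL9* stay below 0 in every fit.

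Ratios of related genes within a library do not depend on how libraries are scaled against each other. They are ratios of counts that were not divided by transcript length, so a change between libraries can be read and the size of a ratio cannot. *ACTA2* counts were 0.709% and 6.26% of those of *ACTB*, the ubiquitous beta actin, in SZC replicates 1 and 2, and 3.46% and 16.6% in DZC replicates 1 and 2, so the zones overlapped. *TAGLN* counts were 8.31% and 49.4% of those of *TAGLN2* in SZCs and 97.3% and 128% in DZCs, and here the DZC libraries lay above both SZC libraries. DZC replicate 1 was also the library with the lowest *TAGLN2*.

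For *MYL9* the counts were 16.5% and 29.4% of those of *MYL12A*, a related light chain, in SZCs, and 44.5% and 45.5% in DZCs. *CNN2* counts were 31.7% and 39.6% of those of *CNN3*, the third calponin, in SZCs, and 70.1% and 96.3% in DZCs. In these 3 of the 8 pairs computed the zones did not overlap, and the exact two-sided permutation test over libraries gave p = 0.333, the smallest that 2 against 2 allows. *TPM1* ranged from 25.2% to 199% of *TPM3*, *TPM2* from 10.96% to 107%, *ACTN1* from 12.2% to 48.0% of *ACTN4* and *CNN1* from 0.794% to 20.8% of *CNN2*, all with overlapping zones.

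**Figure D4:**
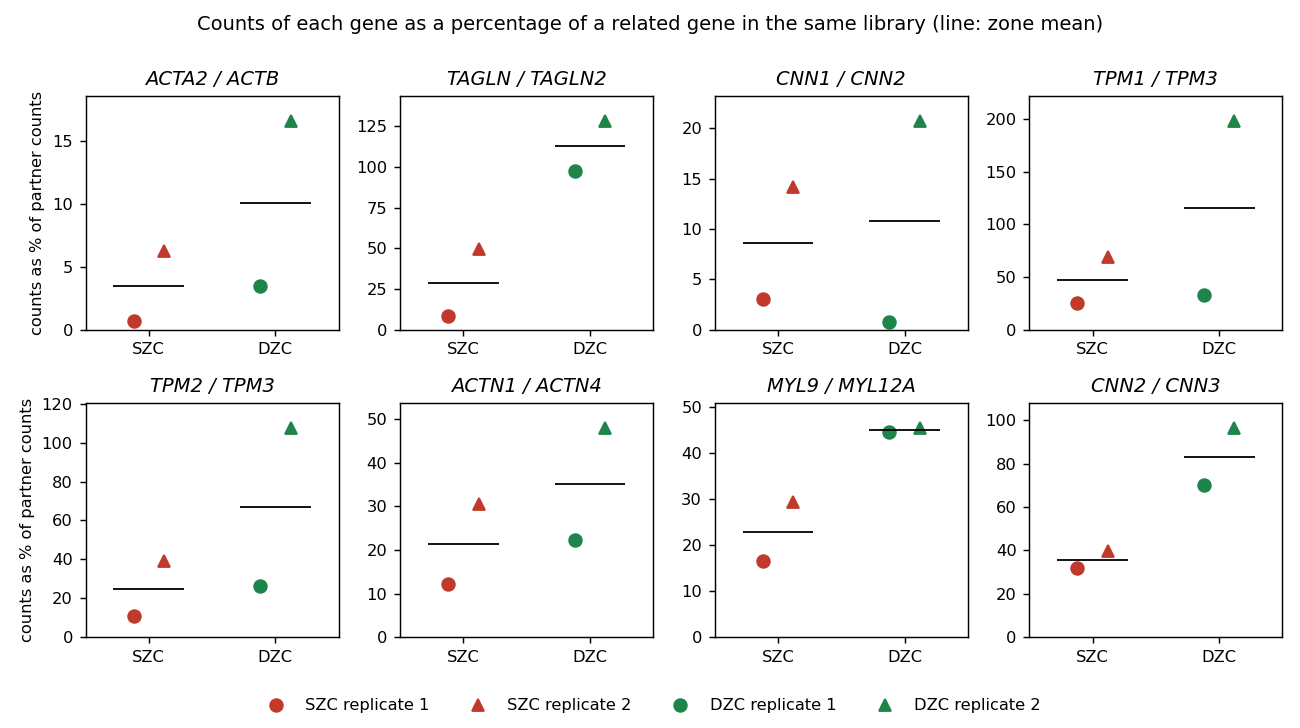
Counts of each gene as a percentage of the counts of a related gene in the same library (vertical axis, linear from 0), by zone and replicate, with a line for the zone mean (n = 2). The DZC libraries lie above both SZC libraries for *TAGLN* over *TAGLN2*, *MYL9* over *MYL12A* and *CNN2* over *CNN3*, and the zones overlap in the other 5 pairs.

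Other genes of the actin system were read from 6 lists chosen by name, with 87 genes, of which 84 were counted and 80 tested. Of these 80, 2 passed edgeR's exact test at an FDR below 0.05, 1 in each direction, which is a share close to that of all genes tested. *GSN*, gelsolin, which severs and caps actin filaments, was at 1354 and 1145 CPM in SZC replicates 1 and 2, and at 307 and 212 CPM in DZC replicates 1 and 2. It was 4.81-fold higher in SZCs, and edgeR's exact test gave it a log2 fold change of 2.27 ± 0.40 (SE) with an FDR of 1.64e-05. *DSTN*, destrin, which depolymerizes actin, was at 598 and 732 CPM in SZCs and 2085 and 1414 CPM in DZCs, and edgeR's exact test gave it a log2 fold change of -1.40 ± 0.41 (SE) with an FDR of 0.0363. Both missed the threshold in edgeR's quasi-likelihood test, with an FDR of 0.186 for *GSN* and 0.392 for *DSTN*, and without SZC replicate 1, with 0.131 and 1. *DSTN* also missed it without SZC replicate 2 (0.943) and with scaling by library totals (0.18).

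None of the other genes for actin monomer and filament dynamics passed, the list to which *GSN* and *DSTN* belong, and 3 of its 20 genes had an unadjusted p below 0.05 by edgeR's exact test. In 11 of its 20 genes, among them the cofilins *CFL1* and *CFL2* and the thymosin *TMSB4X*, both DZC libraries lay above both SZC libraries, against 20.5% of all genes tested. But with scaling by library totals only *DSTN* and *TMSB4X* did so, against 7.51%. It was 5 of the 20 genes with totals without *COL2A1*, against 15.2%, and *CFL2* was not among them. *EZR*, ezrin, which ties actin to the membrane, was at 840 and 735 CPM in SZCs and 1072 and 637 CPM in DZCs. The list's median log2 fold change was -0.16.

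Of the 8 tested actins and relatives of the 10 genes, 0 passed edgeR's exact test and 1 had an unadjusted p below 0.05. *ACTB* was at 1628 and 1490 CPM in SZC replicates 1 and 2, and 1539 and 1873 CPM in DZC replicates 1 and 2. Its log2 fold change was -0.13, and 0.15 with scaling by library totals, which shifts the median of all genes tested to 0.26 from -0.04. *ACTG1*, gamma actin, was at 1447 and 1422 CPM in SZCs and 1013 and 1819 CPM in DZCs, and *ACTN4* at 790 and 646 CPM and at 556 and 756 CPM. Against the 26.9-fold range of *ACTA2* over the libraries, these housekeeping forms kept within a narrow band. *ACTG2*, enteric smooth muscle actin, singled out after its values were seen, had 22 and 136 counts in SZCs and 7 and 263 in DZCs.

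Of 18 genes for non-muscle myosin II and its regulators, 16 were tested and 0 passed edgeR's exact test, with 0 at an unadjusted p below 0.05. *MYH9*, the main non-muscle myosin heavy chain, was at 524 and 552 CPM in SZCs and 173 and 517 CPM in DZC replicates 1 and 2, so again DZC replicate 1 was apart. The light chains *MYL6* and *MYL12A* ranged only from 408 to 486 CPM and from 399 to 453 CPM.

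Of 21 genes for focal adhesions and stress fibre linkers, 0 passed edgeR's exact test and 2 had an unadjusted p below 0.05, with a median log2 fold change of -0.06. *FLNA*, filamin A, was at 369 and 535 CPM in SZC replicates 1 and 2, and 142 and 671 CPM in DZC replicates 1 and 2. *TLN1*, talin 1, was at 291 and 328 CPM and at 196 and 339 CPM. Of 4 tested regulators of the SRF pathway, 0 passed and 0 had an unadjusted p below 0.05. *SRF* itself was at 29.0 and 25.9 CPM in SZCs and at 22.2 and 21.6 CPM in DZCs. *MRTFA* was at 47.2 and 46.5 CPM in SZCs and 29.1 and 33.7 CPM in DZCs, and *MRTFB* at 16.3 and 17.2 CPM and at 9.52 and 18.7 CPM. *TEAD1*, a DNA-binding partner of YAP, singled out after its values were seen, was at 6.95 and 15.6 CPM in SZC replicates 1 and 2, and 7.71 and 23.1 CPM in DZC replicates 1 and 2, so replicate 2 was the higher in both zones. *MYOCD*, myocardin, the coactivator of smooth muscle, had at most 6 counts in any library.

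**Figure D5:**
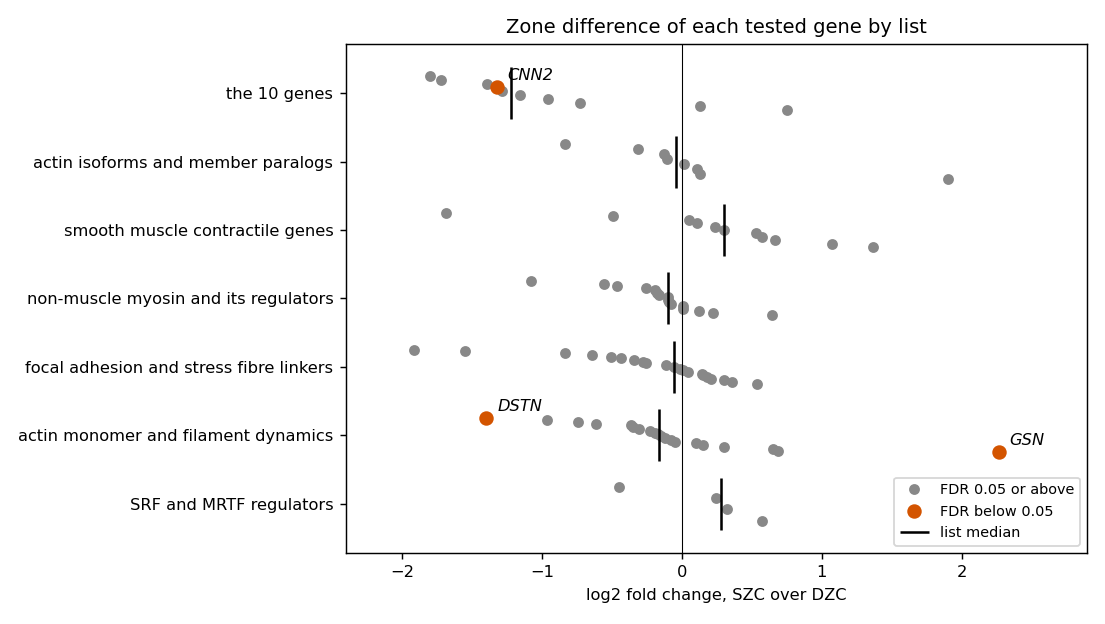
Log2 fold change of SZCs over DZCs (horizontal axis) of each tested gene by list, with genes below an FDR of 0.05 in orange and the list median as a vertical line. The 10 genes have a median of -1.22, and the medians of the other lists lie between -0.16 and 0.30.

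Further smooth muscle genes had replicate 2 above replicate 1 in both zones in 10 of 11 tested, and by more than 1 on the log2 scale in both for *LMOD1*, *SYNPO2* and *MYLK*, the last of which encodes myosin light chain kinase. Between the zones, of the 11 genes 0 passed edgeR's exact test and 0 had an unadjusted p below 0.05, and the median log2 fold change was 0.30. *SYNM*, *CSRP1* and *SMTN*, which encode synemin, a LIM protein of actin bundles and smoothelin, were the highest counted. *SYNM* was at 166 and 191 CPM in SZCs and 133 and 157 CPM in DZCs, and *CSRP1* lay between 107 and 122 CPM in the 4 libraries. *SMTN* was at 32.5 and 38.8 CPM in SZCs and 20.6 and 48.1 CPM in DZCs. *MYH11*, the smooth muscle myosin heavy chain and a defining marker of that cell type, was at 2.23 and 4.57 CPM in SZCs and at 0.311 and 2.29 CPM in DZCs, with replicate 2 the higher in both zones and SZC replicate 2 the highest library.

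Markers of other cells were read beside these values. The RNA comes from bulk cultures, where a larger share of cells with a gene and more RNA per cell cannot be told apart. All 9 genes of a smooth muscle and pericyte list were counted, and without *CSPG4*, which chondrocytes also express, none exceeded 40.8 CPM in any library. Of 8 that were tested none passed edgeR's exact test. Their median log2 fold change was 0.95, with 7 of 8 above 0, against -1.22 for the 10 genes. *PDGFRB* and *NOTCH3* had an unadjusted p below 0.05, and both had the SZC libraries above the DZC libraries. For the other marker lists the median log2 fold change was -1.13 over 9 chondrocyte genes, all below 0, and 1.44 over 5 fibroblast matrix genes. It was 0.83 over 4 endothelial, 0.98 over 3 immune and -3.66 over 2 hypertrophic and bone-forming genes tested. The summed level of 6 endothelial genes was 5.41 and 11.7 CPM in SZCs and 3.86 and 7.98 CPM in DZCs, and that of 5 immune genes 5.50 and 12.1 CPM and 2.55 and 6.14 CPM. Of 6 skeletal muscle genes 4 had 3 counts or fewer in every library, and *MYOD1* and *MYOG* had 0.

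Matrix genes were read as well. The summed level of 5 fibroblast matrix genes (*COL1A1*, *COL1A2*, *COL3A1*, *THY1* and *DCN*) was 17064 and 24923 CPM in SZC replicates 1 and 2, and 3299 and 13156 CPM in DZC replicates 1 and 2, so its replicate 2 was the higher in each zone, as in 3 of the 5 single genes. Of them *DCN*, decorin, passed edgeR's exact test and was higher in SZCs. The summed level of the 9 chondrocyte markers was 124854 and 128119 CPM in SZCs, and 503253 and 194414 CPM in DZCs. Of these *MATN3*, matrilin 3, passed edgeR's exact test and was higher in DZCs. DZC replicate 2 also carried 69.2 CPM of 6 hypertrophic and bone-forming genes, among them *MMP13* and *IBSP*, against 0.187 to 1.91 CPM in the other libraries. *BGLAP*, also on that list, had only 1 count in DZC replicate 2. The part of these differences in the levels of *ACTA2*, *TAGLN* and the rest was not tested.

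The genes whose profile over the 4 libraries was nearest to the mean profile of the 10, by Euclidean distance of centred log2(CPM + 0.5) values, were *SCN11A*, *OMD*, *NTRK2*, *TBC1D9* and *PPM1H*. Among the 10 themselves, *TPM1* and *ACTN1* lay nearest to that mean, at distances of 0.37 and 0.38, and *TAGLN2* farthest, at 2.20. *THBS1*, which encodes the matrix protein thrombospondin 1, was the nearest gene to *TAGLN*, at a distance of 0.37. It was at 1471 and 5603 CPM in SZC replicates 1 and 2, and 2829 and 20621 CPM in DZC replicates 1 and 2, and it did not pass edgeR's exact test (FDR 0.736). *NES* and *RND3* followed for *TAGLN*, *OSCAR*, *NRCAM* and *THBS1* were nearest to *ACTA2*, and *PPM1H*, *FSTL3* and *KRT19* to *TPM1*. With 4 libraries many profiles look alike, and these distances are a description.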

How the data were processed

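The authors sequenced RNA of SZCs and DZCs with a low-input kit, 2 libraries per zone. Reads were aligned by them with STAR 2.5.2b to Ensembl build UMD 3.1 and deposited as raw counts per gene, counted without regard to strand, so a gene and an antisense neighbour share reads. Their deposited table of log2 fold changes and adjusted p-values was used only to fill blank gene names, and ATAC-Seq was not analysed here.

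The counts entered edgeR 4.0.16 (R 4.3.3) with the default filter, TMM scaling, gene-wise dispersion and the exact test of the study's methods. FDR was computed over all 12857 genes tested. Standard errors come from edgeR's fitted dispersion of each gene. DESeq2 1.42.0, other filters, scalings, dispersions and tests, and leaving out each library, were tried as alternatives. The scripts were tested on simulated data. No library was a copy of its replicate (chi-square per degree of freedom 61.9 for SZCs and 303 for DZCs).

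The 10 genes, the lists and the related pairs were chosen with earlier results of these data known. Genes named outside the 10 are those of each list past the FDR threshold or, where fewer than 3 passed, the 3 with the highest mean CPM, the nearest profiles, and markers given beside a result. *CFL1*, *CFL2*, *TMSB4X*, *ACTG2*, *TEAD1*, *LMOD1*, *SYNPO2*, *MYLK*, *MYH11* and *MYOCD* were named with their values already known. Sequences and coordinates of these genes were not used here. A gene that the naming rule selects is not reported here.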

Additional observations from a re-analysis of the deposited data

How the results depend on the processing

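With all 4 libraries kept, none of the 10 genes changed direction under the 10 alternatives, and *ACTB* alone did among the genes followed (0.15 with scaling by library totals). The quasi-likelihood test of edgeR called 0 genes, so 0 of the 10 and 0 of the listed actin genes, with 1126 genes at an unadjusted p below 0.05, against 402 genes called by DESeq2. Scaling by library totals left 44 genes higher in DZCs, against 90, and 288 higher in SZCs, against 287. It called 0 of the 10 genes and 1 listed gene, with 0 listed genes higher in DZCs, and totals without *COL2A1* also called 0 of the 10.

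Each core gave a superficial and a deep slice, but no source used here says that a replicate number marks a joint, so the zones share only numbers. Their deviations from the zone means had a correlation of 0.42 across genes, which are not independent. With the replicate block, the quasi-likelihood test of edgeR called 347 genes, 2 of the 10 (*CNN2*, FDR 0.0353, and *ACTA2*, FDR 0.0146), both higher in DZCs, and 1 listed gene, with 0 higher in DZCs (*DSTN* missed, FDR 0.23). Between same-numbered libraries the log2 difference of SZCs from DZCs was -2.16 and -1.73 for *ACTA2*, -1.06 and -1.44 for *TAGLN* and -1.16 and -1.31 for *TPM2*. It was -0.30 and -1.38 for *TPM1*, -0.37 and -0.87 for *ACTN1*, -1.53 and -0.50 for *MYL9* and -1.27 and -1.33 for *CNN2*. The sign changed between the numbers for *CNN1* (0.34 and -1.78), *TAGLN2* (2.45 and -0.07) and *CALD1* (1.03 and -0.29). The likelihood ratio test of edgeR with the block, added after the data were seen, called 792 genes (597 higher in SZCs and 195 in DZCs), 4 of the 10, all higher in DZCs (*ACTA2* with an FDR of 1.73e-06), and 2 listed genes higher in DZCs.

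Leaving out each library in turn gave 68 to 2768 genes called (62 to 1656 higher in SZCs and 6 to 1112 in DZCs). Of the 10 genes 0 to 7 were called (0 to 2 higher in SZCs and 0 to 7 in DZCs), and of the listed genes 0 to 20 (0 to 16 and 0 to 8). The log2 fold changes then ranged from -3.98 to 0.0022 for *ACTA2*, -3.07 to 0.61 for *TAGLN*, 0.01 to 2.42 for *TAGLN2*, -3.55 to 2.49 for *CNN1*, -2.02 to 0.58 for *TPM1*, -1.34 to 0.26 for *ACTN1*, -0.49 to 1.29 for *CALD1* (-0.10 without SZC replicate 2), -0.26 to 0.041 for *ACTB* and -0.34 to 0.52 for *ACTG1*. The range was -1.46 to -0.58 for *MYL9*, -2.43 to -0.01 for *TPM2* and -1.53 to -1.05 for *CNN2*. The cause was not tested. *CNN1* was the least counted of the 10 genes, with 7 counts in DZC replicate 1, but its DZC libraries differed by far more than counting error.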
